A study of Mus musculus with 6 samples.

Results

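Apoe was followed through 1 probe, spotted 10 times on each of 6 single-colour arrays, in mouse eyes with and without laser injury. The tissue was the back of the eye, namely the retinal pigment epithelium (RPE) together with choroid and sclera. It is 1 of the 44 genes that could be named among the array's 50 probes for messenger RNA (mRNA). The gene was chosen on its difference between injured and control eyes in these same arrays, so that difference is given as a description, with its error and no p-value. In brief, the Apoe signal was 2.23-fold higher in injured eyes, and it was the brightest of the 50 mRNA probes on every array. Every one of its 30 spots in injured eyes lay above every one of its 30 spots in control eyes. The spots are technical repeats of 3 samples per group, so they add no samples to that separation. Of the 45 mRNA probes bright enough to compare, 8.89% had every array of injured eyes above every control array, as did 7.10% of 13357 circular RNA probes.

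Apoe encodes apolipoprotein E, a secreted protein that carries cholesterol and other lipids between cells on lipoprotein particles and is taken up through receptors of the LDL receptor family. Its transcription is raised by the liver X receptors, nuclear receptors that sense oxidised cholesterol. In the eye it is known to be made by Müller glia, by the RPE and by macrophages and microglia, and the protein is found in the lipid deposits that form under the ageing RPE. Laser burns that break Bruch's membrane, the sheet under the RPE, draw in macrophages and glia and let new vessels grow from the choroid, which is called choroidal neovascularization (CNV).

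All 6 samples came from male mice, whose strain and age are not given in the labels. The CNV group held 3 samples, taken 7 days after photocoagulation near the optic disc with a diode laser (532 nm, 100 mW, pulses of 0.1 s, spots of 50 µm, 25 burns per eye). The control group held 3 samples from mice matched in age that received no laser. Total RNA of both groups was digested with RNase R, an exonuclease that removes linear RNA and leaves circular RNA (circRNA), before random-primed labelling with Cy3, so an mRNA probe reads what linear RNA was left or circular RNA that holds the same bases. These were not told apart here. The labels do not say whether a sample is 1 eye, 1 animal or a pool, so the spread between samples may be partly technical. In bulk tissue, more Apoe RNA per cell, more cells that express it and more linear RNA left by the digestion cannot be told apart.

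The probe carries the identifier A_51_P171999 and the transcript accession of a curated Apoe mRNA. RefSeq lists 5 Apoe transcripts on mouse chromosome 7, 4 of them curated, in the GRCm38.p6 assembly, with Apoc1 and Tomm40, an apolipoprotein gene and a gene for a mitochondrial import channel, as the protein-coding neighbours. The array headers name another build (mm9), so no positions are given. Which exon or untranslated region the probe covers is not stated in the files used here, and its sequence was not analysed here.

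The arrays differed in overall brightness. Here and below, a series of 3 values gives arrays 1, 2 and 3 of a group in that order. The 75th percentile of the signal was 77.2, 108 and 103 intensity units for the controls and 77.8, 123 and 129 for the CNV arrays. All 6 share 1 scan time in the file headers. The file headers carry a position code for each array, with no name for its parts; its first number is read here as the slide row. On that reading, which the slide row values below rest on, the controls and CNV 2 lay in slide row 1, CNV 1 and CNV 3 in slide row 2. Normalized values below are log2 of the signal over that percentile of the same array, so a value of 0 is a probe as bright as the percentile.

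The 10 Apoe spots of an array lay close together. Their processed signal is the spot brightness after background subtraction and a detrending factor that the scanner software applies spot by spot. That factor, processed over background-subtracted signal, ran from 0.83 to 1.17 over the 60 spots. The spot spreads, places and slopes below include it. On control 1 the processed signal ran from 883 to 930.0 with a median of 896. On control 2 it ran from 705 to 835 with a median of 770.0, and on control 3 from 1018 to 1146 with a median of 1080.3. Control 2 thus gave the dimmest spots and control 3 the brightest of the group. On CNV 1 the spots ran from 1499.9 to 1708 with a median of 1587. Those of CNV 2 ran from 2954 to 3129 with a median of 3016, and those of CNV 3 from 2208 to 2873 with a median of 2499. The brightest control spot, at 1146, was dimmer than the dimmest CNV spot, at 1499.9, before any scaling between arrays. All 60 spots were well above background and none was saturated, the brightest standing at 0.43% of the scanner's limit. The scanner software marked 4 of the 60 as non-uniform or as population outliers, 1 each on control 1, control 3, CNV 2 and CNV 3. These were left out of the means. Their processed signal lay within the range of the array's other Apoe spots. Their scanned median signal was the highest among the array's Apoe spots, at 991, 1193.5, 3345 and 3028 in that order.

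**Figure D1:**
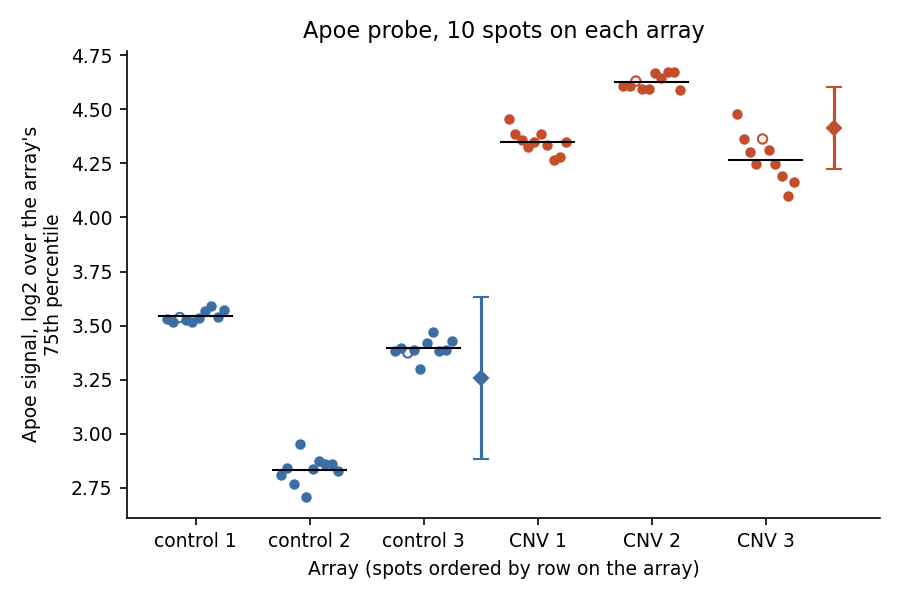
Apoe signal of each spot (log2 over the array's 75th percentile) on the 6 arrays; filled points are spots used, open points are spots left out, black lines are array means, and diamonds with bars are group means ± SD (n = 3 arrays). Every CNV spot lies at or above 4.10 and every control spot at or below 3.59.

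After scaling, the array means were 3.54, 2.83 and 3.39 for the controls against 4.35, 4.63 and 4.27 for the CNV arrays. The group means were 3.26 ± 0.38 (SD, n = 3) and 4.42 ± 0.19 (SD, n = 3). Control 2 was the lowest array and CNV 2 the highest, and the groups did not overlap. The gap between the lowest CNV array and the highest control array was 0.72 log2 units. The difference of the group means was 1.16 ± 0.24 log2 units (unpaired SE from limma, n = 3 per group), a 2.23-fold higher signal in CNV, and 1 SE to either side spans 1.89-fold to 2.63-fold. With the replicate number as a block the SE was 0.31. Over the 9 pairings of a CNV with a control array, the difference ran from 0.72 to 1.80, or 1.65-fold to 3.47-fold. Between arrays of the same number it was 0.81, 1.80 and 0.87. Every CNV array lay above every control array in 4 of the 45 kept mRNA probes, Apoe among them. Nothing is read from this, since the same contrast chose the gene.

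The spread between samples was larger than the spread between spots. Within an array the SD of the Apoe spots was 0.027, 0.065 and 0.046 log2 units for the controls against 0.054, 0.036 and 0.11 for the CNV arrays. The pooled spot SD was 0.063, or 4.48% of the signal, and the pooled SD between arrays of a group was 0.30, or 22.9%. The second was 4.69 times the first, and 95.6% of the variance within groups lay between arrays. The mean over an array's spots carried an error of only 0.021 from the spots. Counting the 56 used spots as samples would give the difference an SE of 0.017 in place of 0.24, but spots of 1 array share 1 RNA sample, so n stays at 3 per group. The difference of 1.16 was 3.90 times the pooled SD between arrays. The gene was chosen for that difference, so the ratio is a description and no test. The scanner software's own error estimate was 10% of the signal on each array, above the coefficient of variation of the spots, which was 1.89% on control 1 and 7.95% on CNV 3, the least and the most variable arrays.

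Precision can be set beside other probes spotted 10 times. The 14 circRNA control probes, which are also bright, had a median spot SD of 0.047 to 0.062 log2 units, depending on the array. The other 44 kept mRNA probes had one of 0.093 to 0.11. On control 1 none of them had a lower spot SD than Apoe, and on CNV 3 a lower one was found in 24 of the 44. Between arrays of a group, the pooled SD of Apoe, 0.30, was exceeded by 18 of the other 44, whose median was 0.24.

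Each of the 10 places on the array gave the difference separately. It ran from 1.09 at the spot in array row 175 to 1.27 at the spot in array row 42, with an SD of 0.073 over the 10 places. At all 10 places the 3 CNV spots lay above the 3 control spots, which repeats the separation of the arrays and is no further evidence. The first and last places show the trend behind that range. The spot in row 42 had a signal of 891, 754 and 1077 for the controls against 1708, 2993 and 2873 for the CNV arrays. The spot in row 180 had 919, 765 and 1113 against 1586, 2954 and 2311. In processed signal CNV 3 differed most between these places, its first spot being 1.24-fold brighter than its last. Its scanned median signal was 2701 at row 42 and 2698 at row 180, with detrending factors of 1.07 and 0.87. On CNV 1 the scanned median signal was 1644.5 and 1743, with factors of 1.06 and 0.92. On these arrays the fall in processed signal thus came with the factor and was not seen in the scanned signal.

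Fitted over the used spots, the slope of the Apoe signal along the rows was 0.036, 0.031 and 0.022 log2 units per 100 rows for the controls and 0.029 for CNV 2. It was -0.079 for CNV 1 and -0.18 for CNV 3, so the negative slopes were those of slide row 2. All slopes given here are of the processed signal and include the detrending factor. Slopes of the scanned signal were not fitted. The array's 14 circRNA control probes, also spotted 10 times each, had negative slopes in 12 of 14 on CNV 1 and in 12 of 14 on CNV 3, against 1, 1 and 0 of 14 for the controls and 3 of 14 on CNV 2. Among the other 44 kept mRNA probes, negative slopes were found in 18, 17 and 20 on the CNV arrays and in 28, 16 and 21 on the controls, with no split by slide row.

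**Figure D2:**
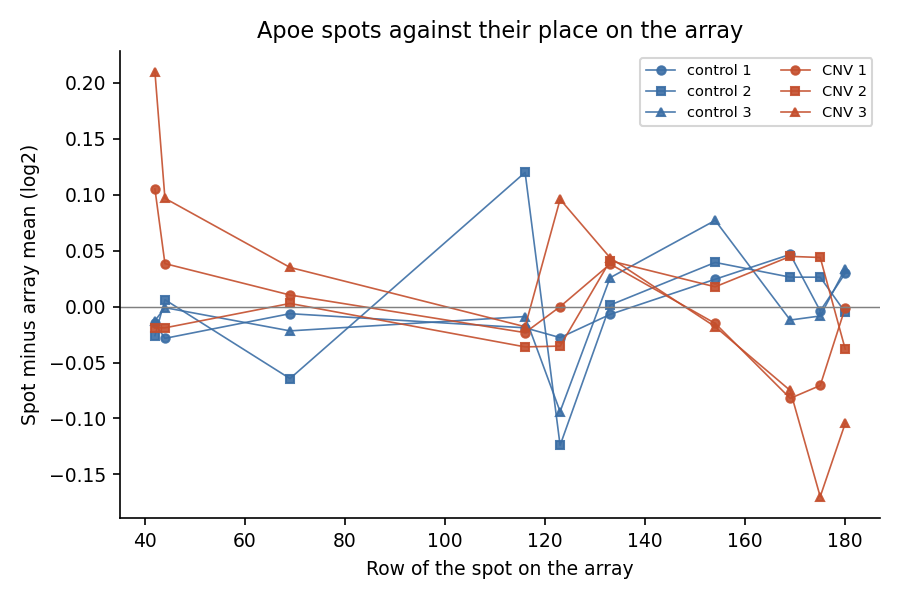
Processed signal of each Apoe spot minus its array's mean (log2, vertical) against the row in which it lies on the array (horizontal), 1 line per array, controls in blue and CNV in red. CNV 3 falls from the first to the last row and CNV 1 falls less, while the controls and CNV 2 show little slope.

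Slide row is partly shared with the group. In slide row 1, CNV 2 exceeded the 3 controls by 1.37 ± 0.41 (SE), where the lone CNV array is assumed to vary like the controls. The CNV arrays of slide row 2 exceeded the row 1 controls by 1.05, and that row holds no control. The part of slide row in the difference was not tested beyond these values.

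Apoe stood far above the negative probes. The array carries 15 of them, spotted 10 times each, which are named as negatives in the design. Their median signal was 3.18, 2.81 and 4.20 for the controls against 2.57, 4.45 and 3.53 for the CNV arrays. The Apoe signal was 283, 274 and 258 times that median on the controls and 619, 682 and 703 times on the CNV arrays. On a log2 scale these ratios were 8.14, 8.10 and 8.01 for the controls and 9.27, 9.41 and 9.46 for the CNV arrays, so each group was tighter against the negatives than against the 75th percentile. A few negative probes were much brighter than the rest, and 4 of the 15 passed the same filter as the mRNA probes. Against the brightest negative probe of each array, Apoe was 24.6, 27.1 and 29.9 times brighter for the controls and 38.8, 78.1 and 72.4 times brighter for the CNV arrays. The local background around the Apoe spots was 12 to 17 units over all 60 spots, and the scanned spot was a median of 54.0 to 78.2 times that background on the control arrays and 125 to 215 times on the CNV arrays.

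Apoe ranked 1st of the 50 mRNA probes on all 6 arrays. Rank here orders the brightness of probes, which depends on how well each probe binds as well as on its RNA, so it is no order of transcript levels. On control 2 the next brightest mRNA probe was Pex11a, for a protein of peroxisome division, and Apoe was 1.64-fold brighter. On CNV 1 and CNV 2 it was Actb, for cytoskeletal beta-actin, and Apoe was 4.81-fold and 3.90-fold brighter.

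Set among the 14236 circRNA probes, 283, 443 and 255 were brighter than Apoe for the controls, against 117, 100 and 148 for the CNV arrays. In percent of the circRNA probes these were 1.99%, 3.11% and 1.79% against 0.82%, 0.70% and 1.04%. Apoe thus lay among the brightest few percent of the array in both groups. Within 1 log2 unit of its mean level there were 337 kept circRNA probes. Their differences between CNV and control ran from -1.24 to 0.98 with a median of 0.14, and none exceeded that of Apoe upwards. Apoe was chosen for its difference, so this order was favoured in advance and supports nothing. Every CNV array lay above every control array in 20 of the 337, against 7.10% of all 13357 kept circRNA probes. The median pooled SD of the 337 between arrays was 0.30, the same as that of Apoe to 2 decimals.

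**Figure D3:**
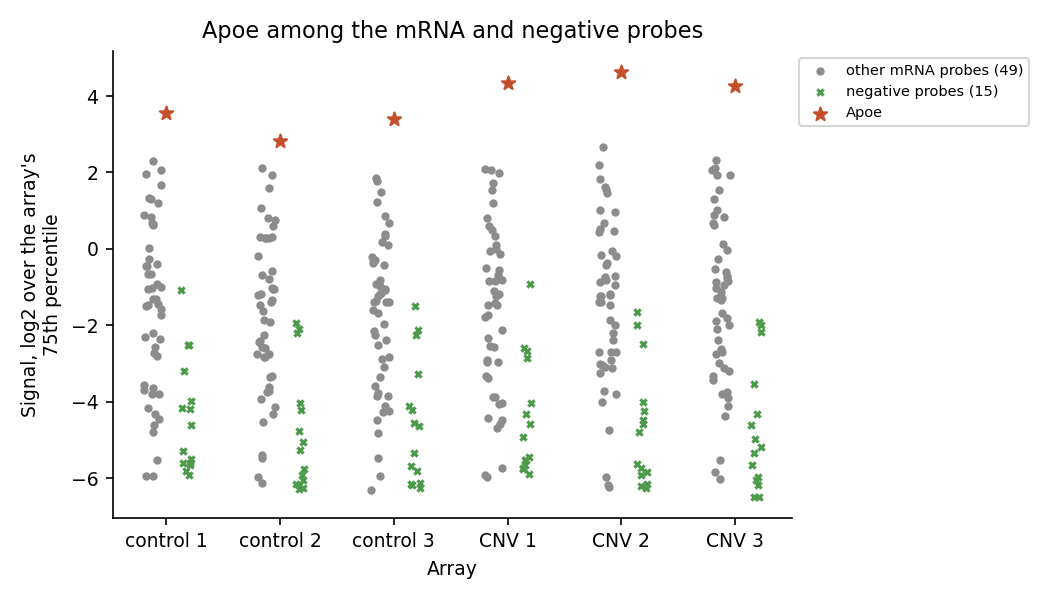
Signal (log2 over the array's 75th percentile) of Apoe (stars), the other 49 mRNA probes (grey) and the 15 negative probes (crosses) on each of the 6 arrays; sideways scatter has no meaning. Apoe is the top mRNA point on all 6 arrays, at 2.83 to 3.54 for the controls and 4.27 to 4.63 for the CNV arrays.

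The other mRNA probes leaned the same way by much less. Of the 44 kept besides Apoe, 39 had a higher mean in CNV and 5 a lower one, with differences from -0.32 to 2.18 and a median of 0.14. Under 6 other scalings 35 to 42 of the 44 were higher. The mean of these 44 was -1.09, -1.38 and -1.38 for the controls against -1.21, -0.95 and -0.97 for the CNV arrays, so that CNV 1 lay below control 1. The group difference of 0.25 had a two-sided exact permutation p of 0.2 (exact p = 1 after adjustment over 5 measures). Measured against this mean in place of the 75th percentile, the Apoe difference was 0.91 ± 0.21 (SE). The 11 other kept mRNA probes with a mean level of at least 0 had differences from -0.01 to 0.81 with a median of 0.17. The highest of these was that of Actb, at 0.81 ± 0.30 (SE), whose groups overlapped. A single probe, Lhfp for a tetraspan membrane protein, had a larger difference than Apoe, at 2.18 ± 0.60 (SE), with CNV values of -0.67, 1.62 and 1.93. H2-Q7, a class I histocompatibility antigen, was the other bright probe without overlap between the groups, at 0.74 ± 0.27 (SE). Cep41, a centrosomal protein, at 0.48 ± 0.20 (SE), and Rps4l, a ribosomal protein-like RNA, at -0.32 ± 0.18 (SE), were the remaining ones, the latter lower in CNV. These genes were named for that separation, so it supports nothing about them. On all 6 arrays Cep41 and Rps4l were dimmer than that array's brightest negative probe, and on control 1 so was Lhfp.

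**Figure D4:**
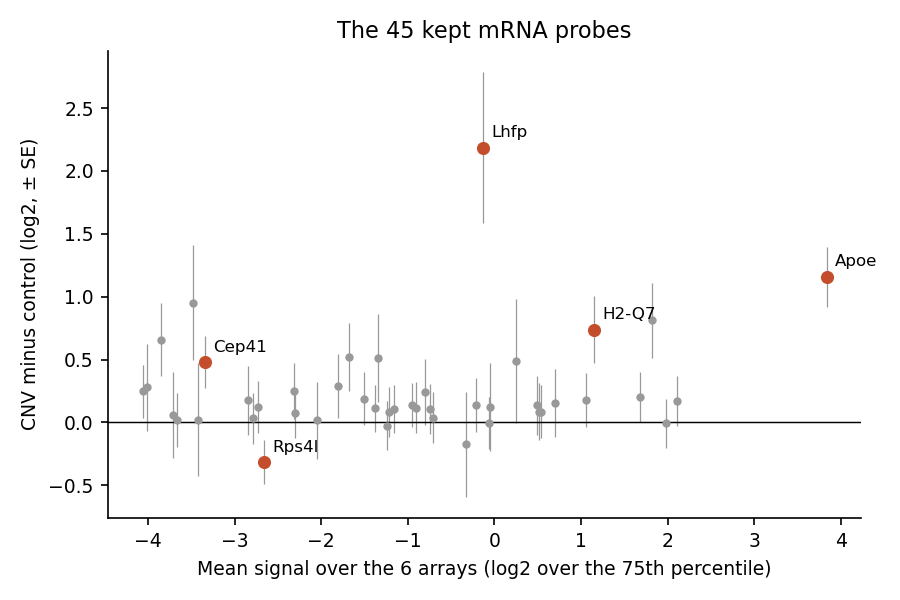
Difference between CNV and control (log2, with SE from limma, vertical) against the mean signal over the 6 arrays (log2 over the 75th percentile, horizontal) for the 45 kept mRNA probes; red points are the 5 whose groups do not overlap. Apoe is the rightmost point, at a difference of 1.16, and Lhfp the highest, at 2.18.

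The other array measures were compared between the groups in two-sided exact permutation tests that exchanged the arrays freely. There the smallest possible p is 0.1. The log2 of the 75th percentile differed by 0.17 (exact p = 0.5) and the log2 of the median negative signal by 0.03 (exact p = 0.9). The local background at the Apoe spots differed by 0.05 units (exact p = 1) and the Apoe spot SD by 0.022 log2 units (exact p = 0.6). After Benjamini-Hochberg adjustment over the 5 measures each exact p was 1. Set by replicate number, the 75th percentile was higher in CNV in 3 of 3 pairs, by 0.011, 0.19 and 0.32 log2 units (two-sided exact paired permutation p = 0.25, the smallest that 3 pairs allow, and 1 after adjustment over the 5 measures). The median negative signal and the local background were higher in CNV in 1 of 3 pairs each, and the spot SD and the mean of the other mRNA probes in 2 of 3 each. A p that misses the threshold does not show that these measures were equal.

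Over the 6 arrays, the named mRNA probes with the pattern most like Apoe were Actb (Pearson r = 0.91), H2-Q7 (r = 0.90) and Cpt1a (r = 0.87), the last for the enzyme that admits fatty acids to mitochondria. The least alike of the 39 named probes was Rps4l (r = -0.94), and the median over the 39 was 0.43. All values share the scaling of their array and the contrast between the groups. With each group centred on its own mean, r with Apoe was 0.82 for Actb, 0.75 for H2-Q7, 0.93 for Cpt1a and -0.66 for Rps4l. Chosen after their values were seen, Gsdmd (0.89) and Tm9sf1 (0.86) lay above Actb and H2-Q7 by that measure, and Taf1a (-0.87) lay below Rps4l, so the order of likeness depended on whether the group contrast was included. The shared part is seen in control 2, which was lowest of the controls in Apoe at 2.83, in Actb at 1.07, in H2-Q7 at 0.32 and in Cpt1a at -2.40. CNV 2 was the highest CNV array in Apoe, Actb (2.67) and Cpt1a (-1.19), but the lowest in H2-Q7 (1.45). These are descriptions over 6 arrays. Cpt1a was dimmer than the array's brightest negative probe on the controls and CNV 1, and Rps4l was so on all 6 arrays.

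The genes that work with Apoe are hardly on the array. Of 18 genes for apolipoproteins and lipoprotein particles, 1 had an mRNA probe, which was Apoe itself. None of 8 genes for Apoe receptors and related uptake proteins and none of 11 genes for cholesterol efflux and its control had one. Whether ligand, receptor and efflux genes moved together was therefore not tested.

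The same limit holds for cell types. Apoe was the 1 gene measured of 6 markers of Müller glia and astrocytes, and 0 of 11 markers of microglia and macrophages, 0 of 8 of RPE, 0 of 6 of endothelium, 0 of 6 of fibroblasts and sclera and 0 of 5 of photoreceptors had an mRNA probe, so the labelled tissue could not be checked against its defining markers. Of 6 melanocyte and pigment markers the array held Tyr, the tyrosinase of melanin synthesis, with -3.78, -4.53 and -4.24 for the controls and -4.02, -3.12 and -3.43 for the CNV arrays. Of 4 Schwann cell and nerve markers it held Mbp, a myelin protein, with -3.80, -4.31 and -3.76 for the controls and -3.36, -1.85 and -3.79 for the CNV arrays. Both were dim, within the range of the negative probes, and overlapped between the groups. The part of cell makeup in the Apoe difference was not tested.

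The Apoe difference ran from 0.84 to 1.37 under 23 alternative settings. Its sign is no test, since the gene was chosen for this difference. With every CNV array at least 0.72 above every control array, leaving arrays out could not bring it to 0. The replicate block and the spread fitted with circRNA probes cannot move the estimate. Slide row as a term and slide row 1 alone give the same 1.37. Scaling choices between arrays, with all 6 arrays in the fit, gave 0.91 with the other mRNA probes as the reference, 1.12 with quantile normalization, 1.30 with the negative probes as the reference and 1.33 with no scaling. Leaving out 1 array at a time gave 0.95 to 1.30, lowest without control 2 and highest without control 1. Leaving out control 2 and CNV 2 together, the lowest control and the highest CNV array, gave 0.84 ± 0.38 (SE), the smallest value of all.

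**Figure D5:**
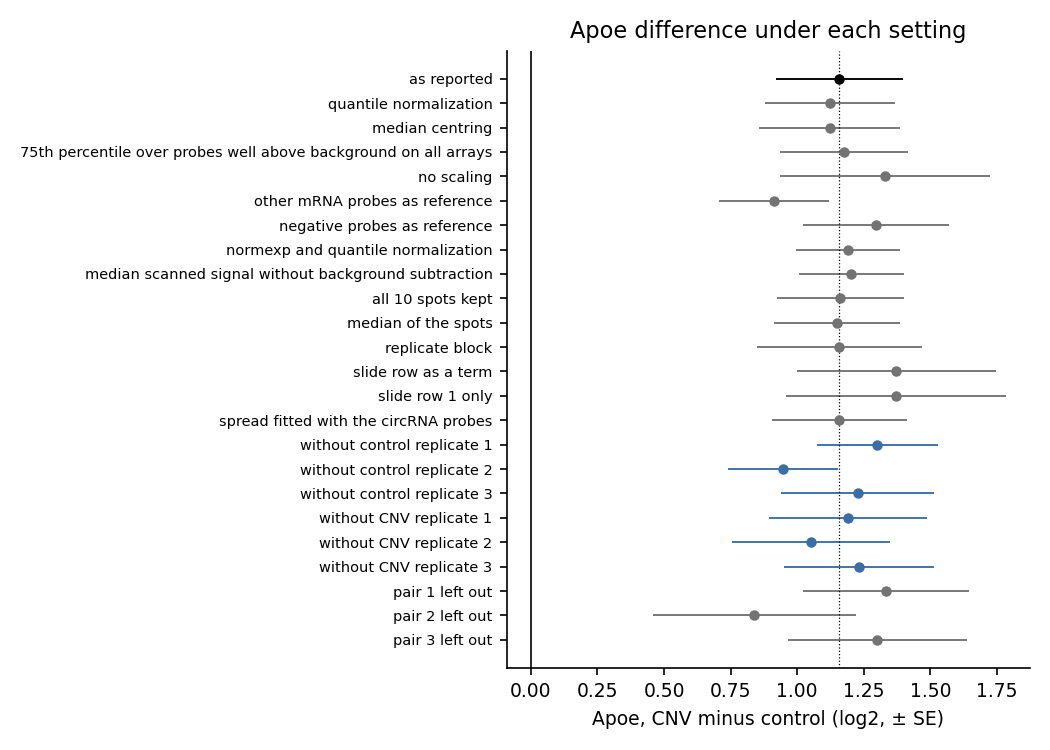
Apoe difference between CNV and control (log2, with SE) as reported (black), under other settings (grey) and with 1 array left out (blue). Grey covers the processing settings, the replicate block, the slide row settings and the left-out pairs. The dotted line marks the reported 1.16 and the solid line 0. All points lie between 0.84, with pair 2 left out, and 1.37, from the slide row settings.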

How the data were processed

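The deposited scanner tables give spot intensity from Feature Extraction 11.0.1.1, background-subtracted per the file headers, detrended spot by spot and not normalized between arrays. The authors' deposited table of log2 values lists 14236 circRNA probes and no Apoe row, so it was not used for values. From the intensities, log2 of the processed signal minus the array's 75th percentile over non-control probes was computed. Spots marked non-uniform or as population outliers were dropped and the remaining spots of a probe averaged. A probe counted as well above background on an array when at least 50% of its used spots were, and was kept when this held on at least 3 arrays, which kept 45 of 50 mRNA probes and 13358 circRNA probes, 1 of which lacked a value on some array. Accessions were matched without versions to RefSeq symbols (44 of 50 matched).

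Differences and SEs came from limma 3.58.1 (lmFit, eBayes) in R 4.3.3 over the kept mRNA probes. On simulated independent values only the recovery of an added difference was checked, and the SEs were not tested. Permutation tests used scipy 1.17.1 and figures matplotlib 3.10.9. Apoe, the gene lists and the tests were chosen with earlier results of these data known. Named besides Apoe were, by rule, probes without overlap between groups, the next brightest, and the most and least correlated ones. Not every next brightest probe is reported here.

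Same-numbered arrays deviated together from their group means over kept circRNA probes, with correlations of 0.41, 0.18 and 0.17 for pairs 1 to 3. By the rule of 0.1 for every pair the samples count as paired, from the values alone and not from the labels. Correlations between arrays of unlike number were not set beside these, so it is not shown that same-numbered arrays are more alike.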

Additional observations from a re-analysis of the deposited data

How the results depend on the processing

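Of 17 alternatives other than leaving out 1 array, 16 moved the Apoe difference of 1.16 by less than the SD between arrays of a group, 0.30. Among those 16, the replicate block and the spread fitted with circRNA probes cannot move it. The exception was leaving out pair 2, at 0.84, which takes out the lowest control and the highest CNV array. Why control 2 and CNV 2 lay so far apart was not tested. Leaving out 1 array at a time gave 0.95 to 1.30. With the replicate number as a block the difference was 1.16 with an SE of 0.31, against 0.24 unpaired, and no call rested on it. Slide row as a term gave 1.37, which rests on CNV 2 alone. The mean log2 ratio of Apoe to the negative probes was 8.73 ± 0.71 (SD, n = 6), 5.34 against the brightest negative probe and 5.79 on the median scanned signal without background subtraction, which leaves the background in both terms. The mean spot SD of 0.057 stayed between 0.046 and 0.063 without any 1 array, and the rank stayed 1 throughout. Normexp with quantile normalization gave 1.19 and the median scanned signal 1.20. Those settings, the spread fitted with circRNA probes and the left-out pairs were chosen after seeing the data. Mean scanned signals, planned for these, and the authors' table, which lists no Apoe row, were not run. The number of arrays limits the precision.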
